A study of Homo sapiens with 54 samples.

Results

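Hyaluronan is a long sugar polymer of the space around cells, made at the plasma membrane by the hyaluronan synthases and cut by hyaluronidases. Fragments and intact chains are bound at the cell surface mainly by CD44, a receptor long studied in the migration of breast cancer cells. CEMIP is a protein that binds hyaluronan and is needed for its breakdown in several cell types, and it is known for its association with the migration and invasion of tumour cells. The genes of this system followed here, given by name, were CEMIP, the synthases HAS2 and HAS3, the hyaluronidases HYAL2 and HYAL3, and CD44. They are 6 of the 27978 genes in the count table, all 6 were tested in every comparison, and they were chosen with their levels in these libraries known. Their levels and ratios are therefore given as a description, with standard errors and 95% intervals but with no test.

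The RNA was that of the human breast cancer line MDA-MB-231, in 54 libraries of 18 groups with 3 biological replicates each. Cells were left untreated or were exposed to Compound Kushen Injection (CKI), an extract of medicinal roots, at 2 mg/ml, or to mixtures rebuilt from its compounds at an equivalent dose. In batch 1 at 24 h and again at 48 h the groups were untreated, CKI, N-OmtOspc (CKI lacking oxymatrine and oxysophocarpine), N-MacOmtOspc (CKI lacking macrozamin as well), OmtOspc (only oxymatrine and oxysophocarpine) and MacOmtOspc (only those compounds and macrozamin). In batch 2 at 48 h they were untreated, CKI, and CKI lacking macrozamin (N-Mac), N-methylcytisine (N-Nme), oxymatrine (N-Omt) or trifolirhizin (N-Tri). All cells shared the same medium with serum, and a treatment group is compared only with untreated cells of its own time and batch, so the 5 comparisons of each time and batch share 3 untreated libraries.

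Total counts were 17673537 to 26138924 per library. Levels are CPM, a gene's count scaled by its library's total after TMM correction. Of 6 genes high in this line, VIM, KRT8, KRT18, AXL and LDHB were abundant, while SPARC had a median of 0.926 CPM, and the hormone receptor genes ESR1 and PGR reached at most 0.333 and 0.0923 CPM. Other genes on the list of those low in this line were present, with medians of 63.0 CPM for ERBB2, 15.6 for EPCAM and 15.1 for GATA3, and the 8 genes of that list summed to 64.0 to 178 CPM. The summed level of 7 fibroblast markers was 32.9 to 76.1 CPM in untreated and 14.5 to 98.8 CPM in treated libraries, and that of 4 leukocyte markers was 4.66 to 20.3 and 0.784 to 28.8 CPM, with CD14 at a median of 5.51 CPM. Of the fibroblast markers, COL1A1, PDGFRB and COL1A2 had medians of 17.3, 6.53 and 6.30 CPM. The medians of DCN and CD3E were 0, and those of PDGFRA and PTPRC 0.134 and 0.174 CPM. For 3 endothelial markers the sum was 0.833 to 1.86 and 0.717 to 6.41 CPM. The part of these markers in the results was not tested. At 24 h, 3 libraries whose table columns carry no replicate number (CKI replicate 1, N-MacOmtOspc replicate 2 and OmtOspc replicate 2) stood apart. Over the 834 genes that differed more than 2-fold between the untreated cells of the batches, their slopes toward batch 2 were 0.579 to 0.672, against -0.422 to 0.09 in the other 33 libraries of batch 1. Each slope was taken against the other libraries of the same group. The group mates of the 3 were thus set partly against them and lay at -0.422 to -0.184. The remaining libraries of batch 1 lay at -0.127 to 0.09. In bulk RNA, fewer cells with a transcript and less transcript per cell cannot be told apart.

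Per kilobase of exon, untreated cells at 24 h held most CD44 (85.6 CPM per kilobase), then CEMIP (39.7) and HYAL2 (16.5), and far less HYAL3 (2.60), HAS2 (0.893) and HAS3 (0.384). The cells thus carried the transcripts of the receptor and of CEMIP at levels well above those of either synthase. HAS2 and HAS3 rested on 17 to 174 and 12 to 150 counts per library, and CEMIP on 256 to 10608. Untreated levels also differed between batches at 48 h, with no overlap of the 3 and 3 libraries for any of the 6 genes, where 63.9% of the 14667 genes tested in every comparison did not overlap. CEMIP was 409.7 ± 21.3 CPM in batch 1 and 183 ± 9.55 in batch 2 (SD, n = 3), and HAS3 and HYAL2 were also lower in batch 2, while HAS2 and CD44 were higher.

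The 250 bases before the CEMIP start are shown because this gene was the only one of the 6 with every treated library below every untreated one in all 15 comparisons, a property of the values it was chosen on. They are from RefSeq (GRCh38.p14, chr15:80779120-80779369, plus strand), with capitals marking the matches found on either strand to the core of aryl hydrocarbon receptor sites (GCGTG) and to the TATA box (TATAAA).

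CEMIP promoter: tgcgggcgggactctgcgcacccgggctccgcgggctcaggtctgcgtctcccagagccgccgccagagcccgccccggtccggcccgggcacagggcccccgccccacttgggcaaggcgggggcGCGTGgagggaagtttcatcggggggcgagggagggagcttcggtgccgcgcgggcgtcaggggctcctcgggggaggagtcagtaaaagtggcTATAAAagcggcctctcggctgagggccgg

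The TATAAA match began 30 bases before the start, and of 35116 promoters of the same length 10.7% held these letters on either strand. GCGTG began 124 bases before the start, and 32.2% of promoters held it. RefSeq promoters were at hand for 5 of the 6 genes. Among those, TATAAA was found for CEMIP alone and GCGTG also for HAS3 and HYAL2, while the AP-1 letters TGANTCA, present in 6.57% of all promoters, were found for none of the 5.

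CEMIP was lower in every treated library than in every untreated one. At 24 h the untreated libraries held 267, 287 and 326 CPM. With CKI they held 14.1, 59.4 and 48.1 CPM, with N-OmtOspc 44.5, 39.9 and 36.0, and with N-MacOmtOspc 43.1, 47.1 and 44.6. OmtOspc gave 45.9, 21.1 and 63.9 CPM, and MacOmtOspc gave 44.8, 49.7 and 58.5. Each treated group overlapped with its neighbours in the order of means, N-OmtOspc and MacOmtOspc did not overlap with each other, and no treated library reached the untreated range. On the log2 scale they were 2.53 to 2.86 below untreated, with the ratio at -2.86 (SE 0.40) for CKI and -2.53 (SE 0.39) for MacOmtOspc. The CKI and OmtOspc libraries at 14.1 and 21.1 CPM are among those that stood apart, and without the 3 such libraries the CKI ratio was -2.46.

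**Figure D1:**
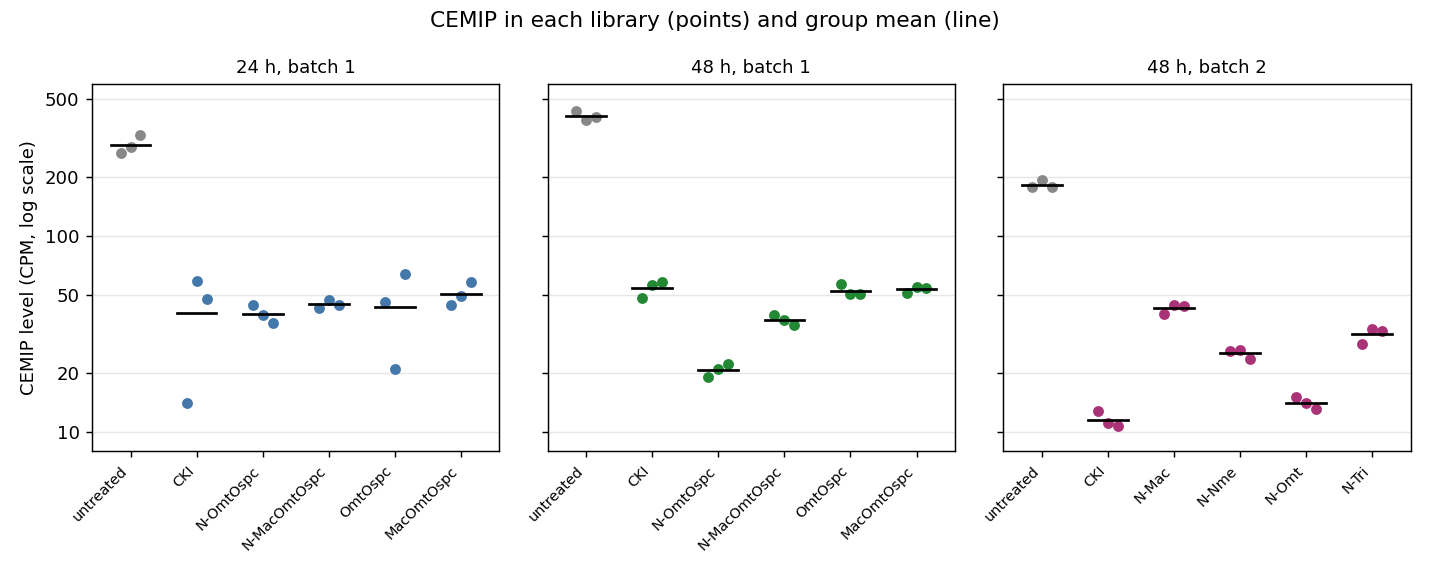
CEMIP level in CPM (log scale) in each of the 54 libraries, with points for libraries and lines for the mean of 3, by treatment in batch 1 at 24 h, batch 1 at 48 h and batch 2 at 48 h. All 45 treated libraries lie between 10.8 and 63.9 CPM and all 9 untreated libraries between 177 and 433 CPM.

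At 48 h in batch 1 the mixtures separated. Untreated libraries held 433, 391 and 405 CPM of CEMIP, and CKI libraries 48.1, 56.3 and 58.3. N-OmtOspc libraries held 19.1, 21.0 and 22.4 CPM, below every other treated library of this time and batch, and N-MacOmtOspc libraries followed with 39.8, 37.3 and 35.4. OmtOspc, at 56.9, 50.6 and 50.8 CPM, and MacOmtOspc, at 51.4, 55.1 and 54.4 CPM, overlapped with CKI. The ratio to untreated was -4.28 (SE 0.089) for N-OmtOspc, -3.45 (SE 0.085) for N-MacOmtOspc and -2.92 to -2.97 for the other mixtures and CKI. Set against each other, CKI lay 1.36 above N-OmtOspc (95% interval 1.19 to 1.54), and N-MacOmtOspc, which differs from N-OmtOspc by the lack of macrozamin, lay 0.83 above it (0.65 to 1.00). MacOmtOspc minus OmtOspc, which also differ by macrozamin, was 0.02 (-0.14 to 0.19).

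In batch 2 at 48 h no neighbouring groups overlapped. Untreated libraries held 178, 194 and 177 CPM. CKI libraries were the lowest of the study at 12.9, 11.1 and 10.8 CPM, followed by N-Omt at 15.2, 14.1 and 13.2, N-Nme at 26.1, 26.1 and 23.7, N-Tri at 28.3, 33.5 and 32.9, and N-Mac at 40.3, 44.6 and 44.2. Each mixture that lacked 1 compound thus kept more CEMIP transcript than whole CKI. CKI minus N-Mac was -1.91 (95% interval -2.06 to -1.75), CKI minus N-Tri -1.42 (-1.58 to -1.25), CKI minus N-Nme -1.11 (-1.27 to -0.94) and CKI minus N-Omt -0.29 (-0.47 to -0.11). The ratio to untreated ran from -3.98 (SE 0.073) with CKI to -2.08 (SE 0.062) with N-Mac.

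Between times, the CEMIP ratio of N-OmtOspc was 1.45 lower at 48 h than at 24 h (95% interval of the difference -2.24 to -0.65), whereas for CKI in batch 1 the difference was -0.05 (-0.85 to 0.74). Between batches, the CKI ratio at 48 h was 1.07 lower in batch 2 (-1.28 to -0.85), where the untreated level was lower as well. Of the 14667 genes tested in every comparison, 584 (3.98%) had every treated library below every untreated library of its time and batch. In all 15 comparisons, 27 genes (0.184%) had a log2 ratio of -1 or lower. Only CEMIP and RCSD1 (0.0136% of genes) had a ratio of -2 or lower in all 15. CEMIP was chosen on these values and its ratio nearest 0 was -2.08, so nothing is read from its place here. RCSD1 is named after its values were seen. In the other direction, 417 genes (2.84%) had every treated library above every untreated one, and none of the 6 genes was among them.

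Counting the 6 genes together, the treated and untreated ranges were apart at 24 h for 3 genes with CKI (where 52.4% of all genes tested were apart), 4 with N-OmtOspc (70.1%), 4 with N-MacOmtOspc (56.1%), 2 with OmtOspc (36.7%) and 4 with MacOmtOspc (45.1%). At 48 h in batch 1 the counts were 4 (63.0%), 4 (79.9%), 5 (67.2%), 6 (67.9%) and 5 (61.7%) in the same order. In batch 2 they were 5 with CKI (69.6%), 5 with N-Mac (73.6%), 5 with N-Nme (70.7%), 4 with N-Omt (79.2%) and 4 with N-Tri (75.1%). The genes were chosen from these comparisons, and nothing is read from these shares.

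**Figure D2:**
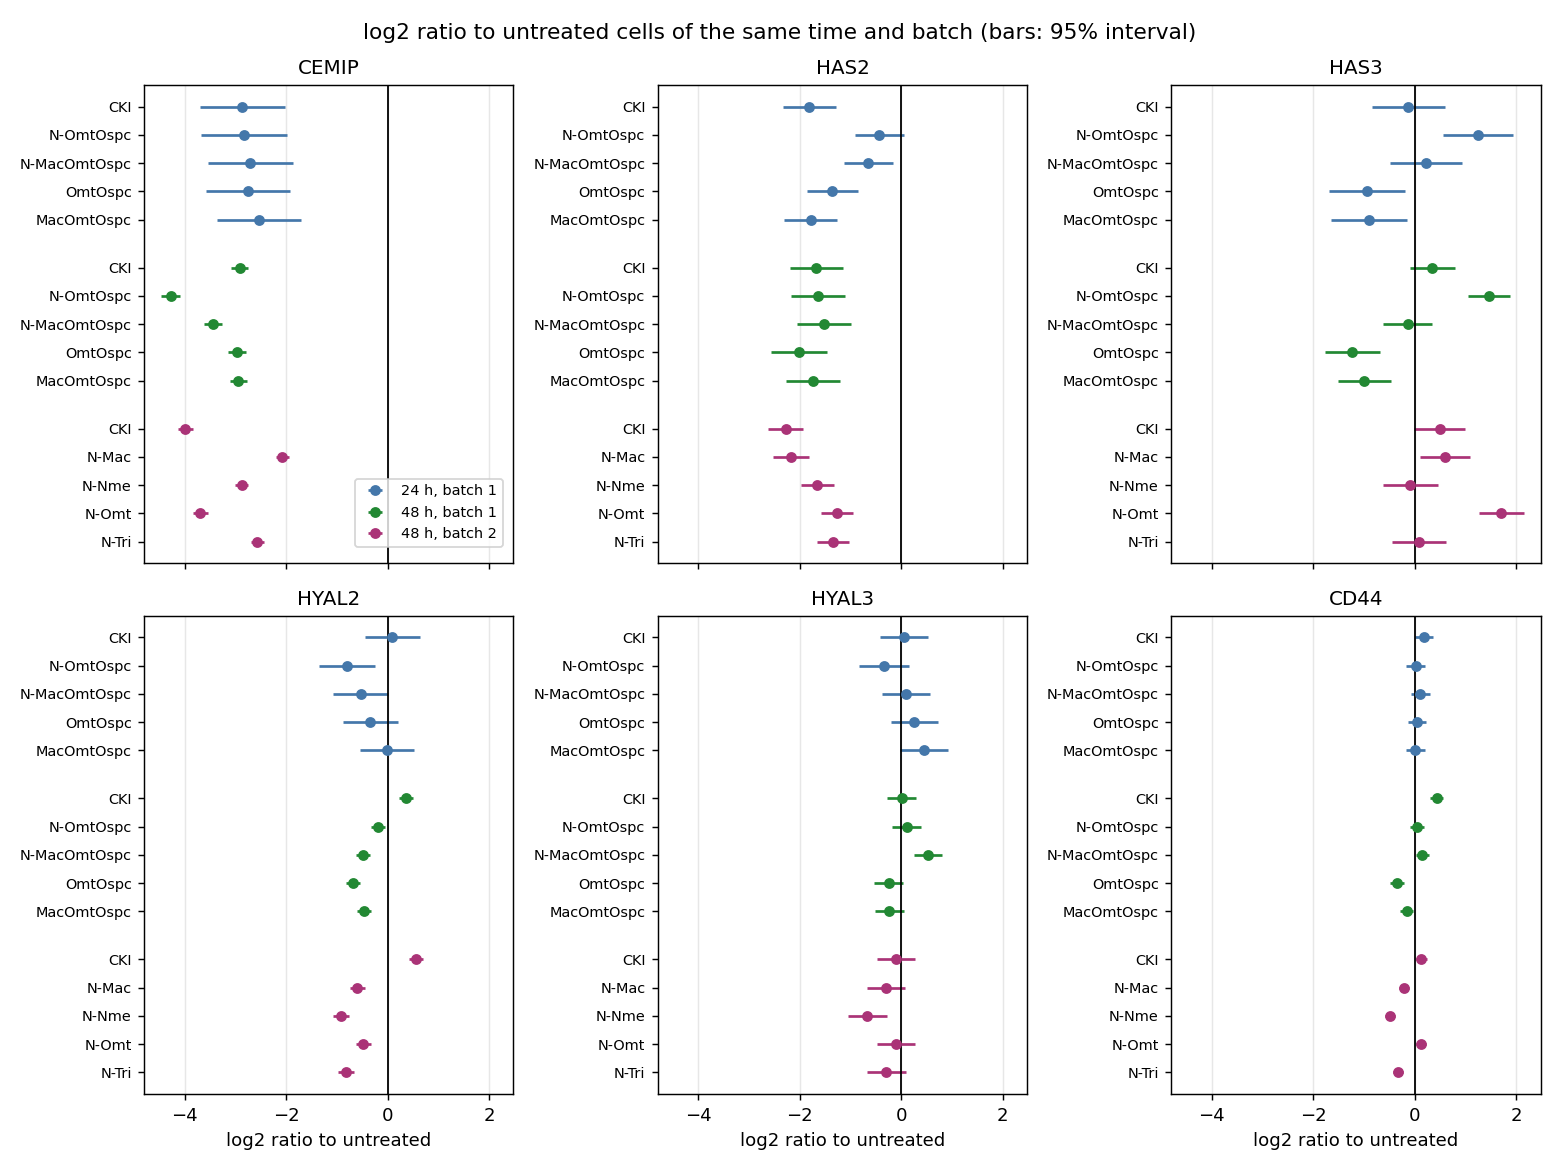
log2 ratio to untreated cells of the same time and batch for the 6 genes in the 15 comparisons, with points for the fitted ratio and bars for its 95% interval. CEMIP lies between -4.28 and -2.08 and HAS2 between -2.28 and -0.43, while HAS3, HYAL2, HYAL3 and CD44 lie on both sides of 0.

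HAS2, the synthase that makes long hyaluronan chains in many mesenchymal cells, was lower than untreated in all 15 comparisons, with 44 of 45 treated libraries below every untreated library of their time and batch. At 24 h the untreated libraries held 3.19, 3.05 and 4.98 CPM. CKI libraries held 1.17, 0.895 and 1.14 CPM and MacOmtOspc libraries 1.08, 0.916 and 1.26, with OmtOspc just above at 1.32, 1.63 and 1.43. N-OmtOspc, at 3.13, 2.48 and 2.51 CPM, overlapped with untreated, and N-MacOmtOspc, at 1.99, 2.94 and 2.21, lay below it. The CKI ratio was -1.81 (SE 0.25), against -0.43 (SE 0.23) for N-OmtOspc and -0.65 (SE 0.23) for N-MacOmtOspc. Without untreated replicate 3, which was the highest, the latter ratios were -0.17 and -0.39. CKI minus N-OmtOspc was -1.38 (95% interval -1.92 to -0.84).

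By 48 h in batch 1 the HAS2 groups had drawn together. Untreated libraries held 4.32, 4.01 and 3.93 CPM, and the 15 treated libraries 0.776 to 1.83 CPM, with all 5 treated groups overlapping. Their ratios were -2.02 (OmtOspc) to -1.52 (N-MacOmtOspc). N-OmtOspc was 1.22 lower at 48 h than at 24 h on the ratio scale (95% interval of the difference -1.90 to -0.54). In batch 2 the untreated libraries were higher, at 5.93, 5.83 and 7.25 CPM. CKI held 1.32, 1.01 and 1.56 CPM and N-Mac 1.07, 1.52 and 1.57, while N-Omt, at 3.06, 2.58 and 2.21, N-Tri, at 2.75, 2.44 and 2.52, and N-Nme, at 1.91 to 2.26, lay above both and below untreated. CKI minus N-Omt was -1.02 (-1.43 to -0.61) and CKI minus N-Tri -0.94 (-1.35 to -0.52), whereas CKI minus N-Mac was -0.11 (-0.57 to 0.36). The mixture that kept most CEMIP, N-Mac, was thus beside CKI in HAS2. HAS2 shares 201 exon bases (4.8%) with its antisense transcript HAS2-AS1, which had 4 to 22 counts per library. The HAS2-AS1 ratio to untreated ran from -1.08 with MacOmtOspc at 24 h to 1.60 with CKI at 48 h in batch 1. The strand setting of the counting is not given in the sources used here, and the part of this overlap in the HAS2 levels was not tested.

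HAS3, a synthase that makes shorter chains, differed in direction with the mixture. At 24 h the untreated libraries held 1.85, 1.46 and 2.31 CPM and N-OmtOspc libraries 3.99, 4.15 and 4.86, all above. OmtOspc libraries held 0.684, 1.54 and 0.677 CPM and MacOmtOspc libraries 1.18, 0.499 and 1.35, below untreated but for 1 OmtOspc library, and CKI and N-MacOmtOspc overlapped with untreated. At 48 h in batch 1 N-OmtOspc was again above and both OmtOspc and MacOmtOspc below every untreated library. Untreated libraries were at 2.45, 1.45 and 1.72 CPM, N-OmtOspc at 6.55, 4.22 and 4.70, N-MacOmtOspc at 1.57, 1.65 and 1.92, CKI at 2.04, 2.72 and 2.42, OmtOspc at 0.868, 0.696 and 0.857, and MacOmtOspc at 0.806, 1.09 and 0.949.

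The HAS3 ratio of N-OmtOspc was 1.25 (SE 0.33) at 24 h and 1.47 (SE 0.20) at 48 h, and that of OmtOspc -0.94 (SE 0.36) and -1.23 (SE 0.26). The mixtures that hold complementary compounds thus lay on opposite sides of untreated, with OmtOspc minus N-OmtOspc at -2.20 (95% interval -2.93 to -1.46) and -2.70 (-3.17 to -2.23). Lacking macrozamin as well, N-MacOmtOspc was 1.03 (0.35 to 1.71) and 1.61 (1.18 to 2.03) below N-OmtOspc, and its ratios to untreated were 0.22 and -0.14. OmtOspc replicate 2 at 24 h is 1 of the libraries that stood apart, and without it the ratio was -1.46. For MacOmtOspc at 24 h it was -0.90, or -0.57 without replicate 2.

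In batch 2, N-Omt was alone in a high HAS3 level, at 3.49, 3.33 and 3.72 CPM against 1.02, 1.28 and 0.916 in untreated cells. Its ratio was 1.71 (SE 0.21), and CKI minus N-Omt was -1.22 (95% interval -1.63 to -0.80). CKI libraries held 1.37, 1.31 and 1.82 CPM and N-Mac libraries 1.55, 1.83 and 1.45, all above untreated, with ratios of 0.49 (0.32 without CKI replicate 3) and 0.60. N-Nme, at 1.41, 0.738 and 0.898 CPM, and N-Tri, at 0.755, 1.30 and 1.37, overlapped with untreated. HAS3 was therefore highest with N-OmtOspc in batch 1 and with N-Omt in batch 2, the mixtures without oxymatrine that keep macrozamin. An exon stretch of 365 bases of HAS3 (7.5%) is shared with CHTF8 on the other strand.

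HYAL2, a hyaluronidase held at the cell surface by a lipid anchor, was higher with CKI than without at 48 h and lower with each of the 8 mixtures. In batch 1 untreated libraries held 60.3, 60.8 and 61.8 CPM and CKI libraries 81.7, 79.6 and 74.3. The mixtures lay below untreated, with N-OmtOspc at 52.2, 49.0 and 55.8 CPM, N-MacOmtOspc at 42.6, 47.1 and 41.9, MacOmtOspc at 43.3, 46.0 and 44.1, and OmtOspc at 39.1, 39.2 and 36.3. In batch 2 untreated libraries held 35.7, 38.4 and 33.3 CPM and CKI libraries 55.1, 51.5 and 51.9. There too the mixtures lay below, at 17.1 to 26.8 CPM over 12 libraries, with N-Nme lowest on average (19.1 ± 2.13, SD, n = 3).

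The HYAL2 ratio of CKI was 0.37 (SE 0.065) in batch 1 and 0.56 (SE 0.069) in batch 2. Those of the mixtures were -0.68 to -0.20 and -0.92 to -0.48. CKI exceeded N-OmtOspc by 0.56 (95% interval 0.43 to 0.70), the smallest of the 8 differences, and N-Nme by 1.48 (1.33 to 1.63), the largest. At 24 h the picture was less clear. N-OmtOspc, at 33.0, 28.5 and 53.8 CPM, and N-MacOmtOspc, at 56.9, 35.5 and 50.4, lay below the untreated 68.7, 71.5 and 67.2 CPM, and CKI had 49.7, 84.0 and 87.4. The low CKI library and the low N-MacOmtOspc library are among the 3 that stood apart, and without these the ratios were 0.30 in place of 0.09 for CKI (-0.02 and -0.05 without CKI replicate 2 or 3) and -0.36 in place of -0.53 for N-MacOmtOspc. For OmtOspc the ratio was -0.34, or -0.16 without replicate 2 and -0.59 without replicate 1.

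HYAL3, a hyaluronidase with little activity of its own in most assays, had ratios of -0.67 to 0.53 over the 15 comparisons, and its range overlapped with untreated in 10 of them. The N-MacOmtOspc libraries at 48 h held 8.02, 8.17 and 8.28 CPM against 5.14, 6.01 and 5.83 in untreated cells, and the N-Nme libraries 2.52, 2.91 and 3.40 against 4.16, 4.72 and 5.00. These were the comparisons with the highest and the lowest ratio, 0.53 (SE 0.13) and -0.67 (SE 0.19). MacOmtOspc at 24 h, at 8.05, 6.79 and 6.40 CPM, lay above the untreated 5.54, 4.85 and 5.08, while at 48 h its ratio was -0.23 (SE 0.14). HYAL3 shares 248 exon bases (12.5%) with NAA80 and 43 with IFRD2 on its own strand, so that reads there may count for either gene or for none.

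**Figure D3:**
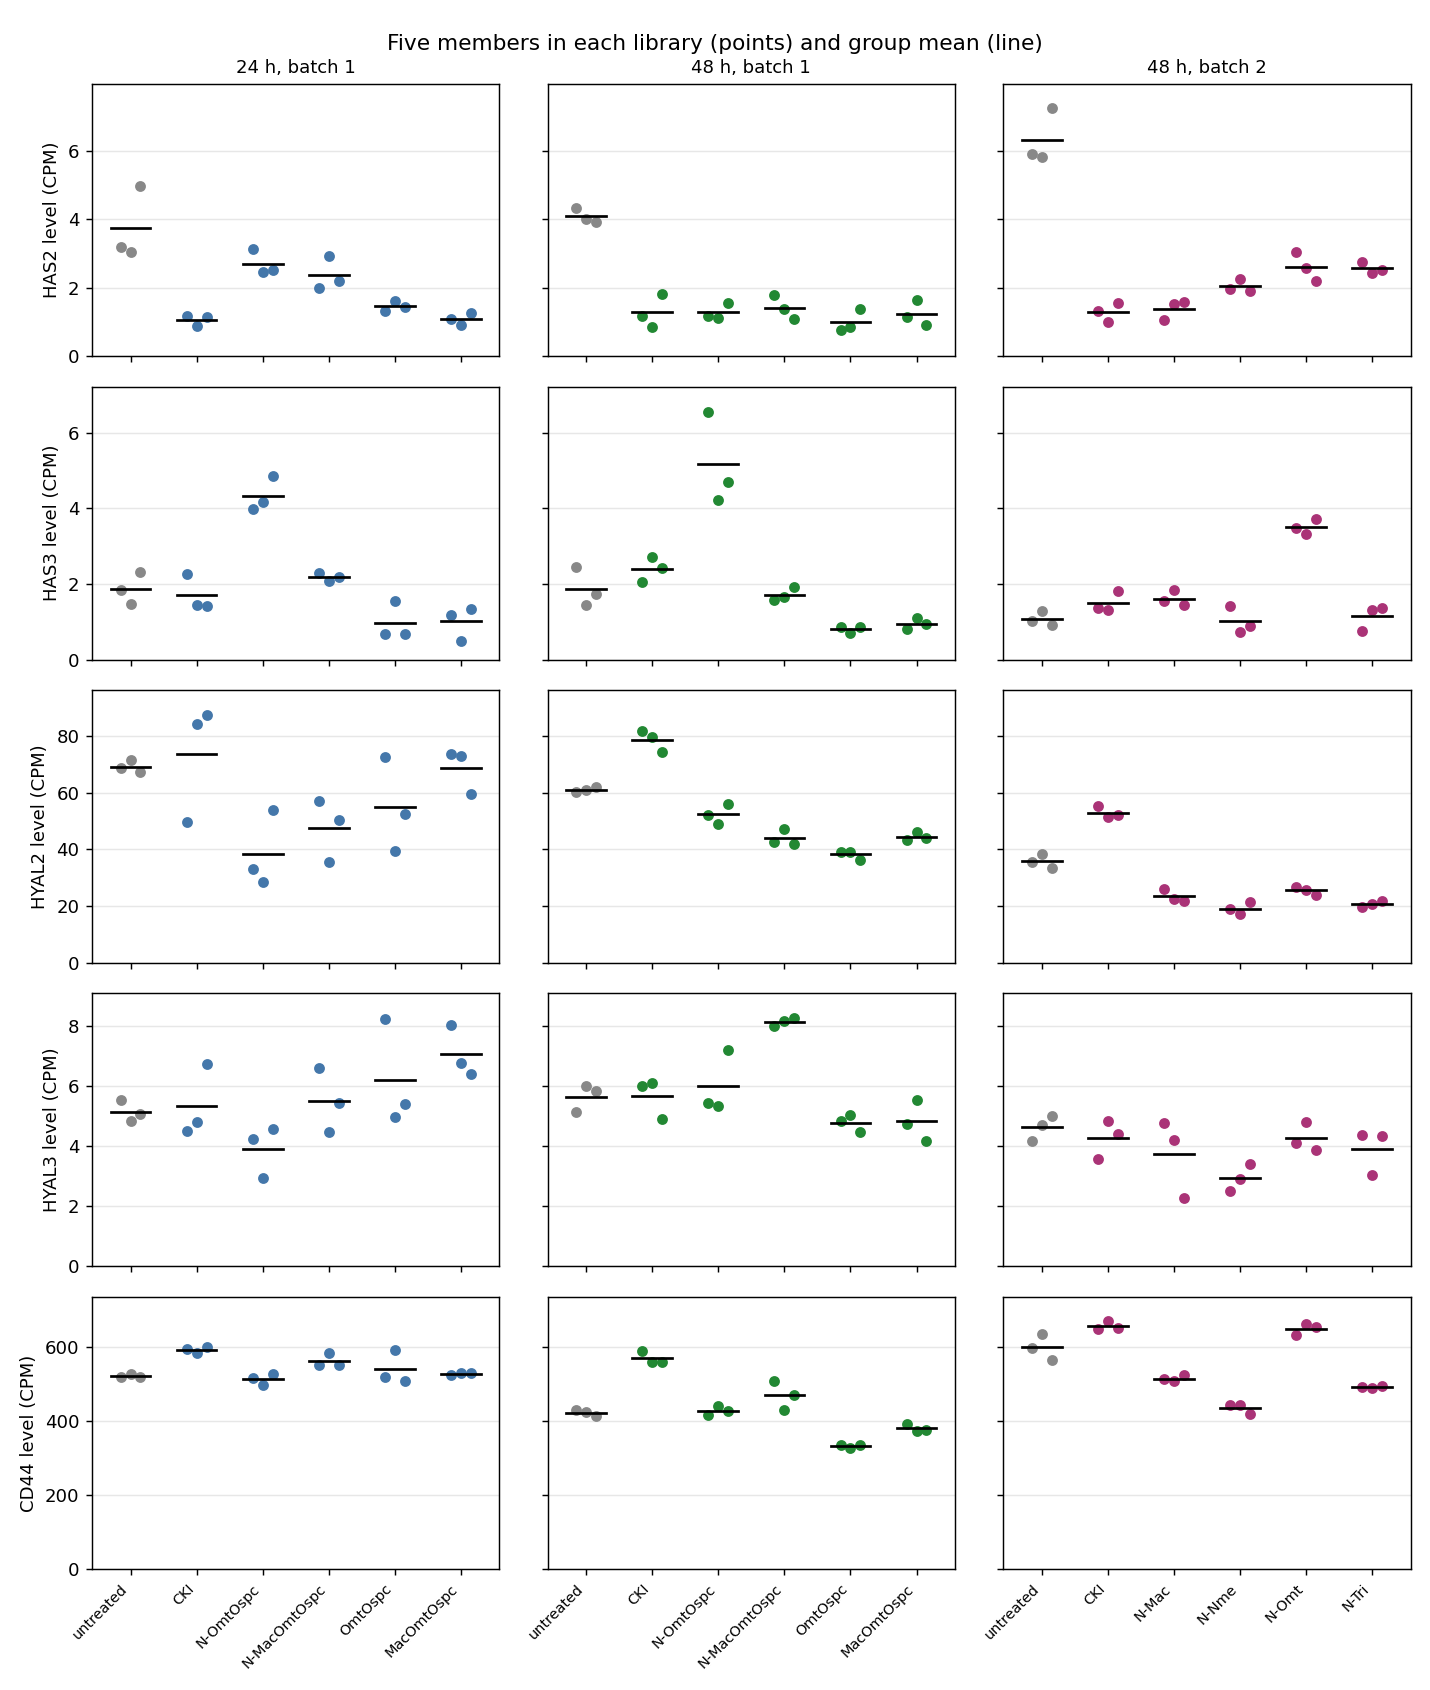
Levels in CPM (linear scale from 0) of HAS2, HAS3, HYAL2, HYAL3 and CD44 in each library, with points for libraries and lines for the mean of 3, by treatment, time and batch. HAS3 is highest with N-OmtOspc and N-Omt, and HYAL2 at 48 h is above untreated with CKI and below it with all 8 mixtures.

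CD44 was abundant throughout, at 328 to 671 CPM, and its ratios were small, from -0.48 to 0.43. At 48 h in batch 1 untreated libraries held 431, 425 and 414 CPM, CKI libraries 591, 561 and 562, and OmtOspc libraries 337, 328 and 337. The CKI ratio was 0.43 (SE 0.065) and the OmtOspc ratio -0.35 (SE 0.065), and CKI exceeded OmtOspc by 0.78 (95% interval 0.65 to 0.92). In batch 2 untreated libraries held 599, 638 and 566 CPM and CKI libraries 650, 671 and 654, just above. N-Nme libraries were lowest at 443, 444 and 419 CPM, followed by N-Tri at 492, 489 and 496 and N-Mac at 515, 508 and 524, all below untreated. N-Omt libraries, at 635, 665 and 655 CPM, overlapped with both untreated and CKI, and CKI minus N-Omt was 0.02 (-0.08 to 0.12).

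At 24 h CD44 was above untreated (519, 528 and 520 CPM) with CKI (595, 586 and 603) and with N-MacOmtOspc (552, 585 and 552), with ratios of 0.18 (SE 0.087) and 0.11 (SE 0.087). For N-OmtOspc at 24 h the ratio was 0.02, and -0.29 with library sizes alone, a scaling that moved the median of all genes in that comparison from -0.01 to -0.31. Gene counts do not separate the CD44 isoforms, which differ by the variable exons they hold.

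The patterns of the 6 genes over the 15 ratios differed from one another. Pearson's r was highest for HYAL2 with CD44 (0.713) and HYAL3 with CD44 (0.621), and CEMIP had r = 0.127 with HAS2 and -0.451 with HAS3. These are descriptions over 15 ratios that share 3 sets of untreated libraries. Such an r compares how ratios vary across the comparisons and takes no account of their side of 0. Of the 9782 genes whose mean over all libraries was 10 CPM or more, the patterns most like that of CEMIP were those of SUCLG2 (r = 0.819), OLA1 (0.801), ACAT1 (0.799), APBB2 (0.791) and CEPT1 (0.790), and the least like were those of CCDC97 (-0.849), BRPF1 (-0.822) and PSMD3 (-0.794). SUCLG2 and ACAT1 encode mitochondrial enzymes. Their ratios were below 0 throughout, while those of OLA1, APBB2 and CEPT1 lay on both sides of 0. HAS2 was most like SLC38A2 (0.864), PDLIM5 (0.836) and AGPAT5 (0.827). The ratios of these genes lay on both sides of 0 (-0.14 to 1.62 for SLC38A2), while HAS2 was lower than untreated in all 15.

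HAS3 had closer likenesses, with IP6K2 (0.950) and the transcription factors ELF3 (0.931) and IRF1 (0.922). For HYAL2 they were C11orf24 (0.961), OCEL1 (0.958) and SLC35B2 (0.938). HYAL3 was most like DHCR7 (0.820), ACLY (0.786) and LSS (0.776), and CD44 like SQLE (0.925), CST2 (0.896) and ADPGK (0.891). DHCR7, LSS and SQLE are enzymes of cholesterol synthesis, and ACLY supplies the acetyl units for it.

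Other genes were taken from 5 lists, 56 genes in all, for synthesis and sugar supply, turnover, receptors, matrix binders and CD44 partners. Of these, 40 had enough counts in at least 1 set. HAS1, the remaining synthase, had 0 to 11 counts per library and was not tested, and neither were HYAL4, SPAM1, LYVE1, VCAN or ACAN. With CKI, the quasi-likelihood test of edgeR, adjusted by Benjamini-Hochberg over all genes, called 15 of 39 at 24 h (10 higher, 5 lower; 30.0% of all genes tested were called), 31 of 39 at 48 h in batch 1 (19 higher, 12 lower; 54.0%) and 30 of 38 in batch 2 (14 higher, 16 lower; 66.4%). Their median log2 ratios were 0.216, 0.178 and 0.053, and those of all genes 0.020, 0.008 and -0.007. At 24 h the test called 22 of the 39 with N-OmtOspc (62.1% of all genes), 20 with N-MacOmtOspc (45.0%), 14 with OmtOspc (16.7%) and 9 with MacOmtOspc (10.5%). At 48 h in batch 1 it called 31 (76.6%), 32 (71.1%), 31 (57.8%) and 28 (51.2%) in the same order. In batch 2 it called 30 of 38 with N-Mac (72.4%), 27 with N-Nme (71.3%), 28 with N-Omt (78.2%) and 28 with N-Tri (72.2%).

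On the list for synthesis and sugar supply 9 genes were tested in each set, HAS2-AS1 and UXS1 among them. GFPT2, an entry enzyme of the hexosamine pathway that leads to UDP-N-acetylglucosamine, rose with CKI from 20.8 to 72.4 CPM at 24 h, from 24.4 to 84.1 at 48 h in batch 1 and from 35.1 to 75.4 in batch 2, with log2 ratios of 1.79, 1.79 and 1.11 (adjusted p = 5.88e-08, 8.32e-15 and 2.1e-15). It was called higher in 15 of 15 comparisons (0.48 to 2.47). GFPT1, an entry enzyme of the same pathway, was more abundant, at 82.1 CPM in untreated cells at 24 h. With CKI its ratio was 0.85 at 24 h and 0.18 at 48 h in batch 1. In batch 2 it fell with CKI from 227.0 to 192.4 CPM. Over the 15 comparisons GFPT1 was called higher in 13 and lower in 1. UXS1, which turns UDP-glucuronate into UDP-xylose, rose with CKI by 0.50, 0.23 and 0.39. Over the 15 comparisons it was called higher in 5 and lower in 8, down to -1.01 with N-OmtOspc at 48 h. UAP1, which makes UDP-N-acetylglucosamine, was at -0.04 with CKI at 24 h and fell with it by 0.34 and 0.75 at 48 h. Over the 15 comparisons UAP1 was called higher in 10 and lower in 2. With CKI the list had 4 genes higher and 0 lower at 24 h (30.0% of all genes called), 5 and 3 at 48 h in batch 1 (54.0%) and 2 and 5 in batch 2 (66.4%, list median -0.236). The higher genes include UXS1 each time and HAS2-AS1 at 48 h in batch 1, and neither supplies a sugar for hyaluronan. The 4 mixtures of batch 2, with 71.3% to 78.2% of all genes called, had 5 to 7 higher and 0 to 2 lower (medians 0.437 to 0.738).

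Of the turnover list 6 genes were tested. HYAL1, the lysosomal hyaluronidase, rose with CKI by 1.34 in batch 2 on 7 to 10 counts per untreated library (adjusted p = 0.00844), and the call was lost without CKI replicate 1 (0.93). It was not called with CKI at 24 h (0.85, adjusted p = 0.149) or at 48 h in batch 1 (0.20, adjusted p = 0.499). IDUA, a lysosomal iduronidase, rose with CKI by 0.74 and 0.56 at 48 h. Hyaluronan holds no iduronate, so IDUA is not an enzyme of its turnover, though the counts of this list include it. With CKI, 1, 4 and 5 genes of this list were called, 1, 3 and 5 of them higher, beside 30.0%, 54.0% and 66.4% of all genes.

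Among 5 receptors tested, HMMR, which binds hyaluronan and is also a spindle protein of dividing cells, fell with CKI from 8.43 to 2.74 CPM at 24 h, from 7.96 to 2.70 at 48 h in batch 1 and from 10.4 to 3.27 in batch 2, by 1.62, 1.56 and 1.67 on the log2 scale (adjusted p = 0.000504, 4.15e-09 and 1.6e-11). It was called lower in 13 of 15 comparisons, down to -4.84 with N-Omt. LAYN, a membrane receptor for hyaluronan, rose by 0.62, 0.38 and 0.69, and TLR4, reported to sense its fragments, by 0.70, 0.48 and 0.24. At 24 h the calls of LAYN and TLR4 were lost without any of the 3 untreated libraries or CKI replicate 2 or 3 (0.52 to 0.63 and 0.55 to 0.78).

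Of the matrix binders 7 were tested in batch 1 and 6 in batch 2. BCAN, the brain proteoglycan brevican, was called higher with CKI at 24 h and in both batches at 48 h, from very low levels. Untreated libraries of batch 1 held 0 to 4 counts and CKI libraries 9 to 48, and in batch 2 the counts were 7 to 10 and 73 to 89, a log2 ratio of 3.28 (SE 0.25, adjusted p = 3.44e-13). C1QBP, a mitochondrial protein that was also isolated as a hyaluronan binder, fell by 0.46, 0.53 and 0.72, though its call at 24 h was lost without untreated replicate 2 (-0.43) or CKI replicate 1 (-0.37). PTX3 rose by 0.29 at 48 h in batch 1 and fell by 1.00 in batch 2.

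All 12 partners of CD44 were tested. The sheddase ADAM17, which cuts the CD44 ectodomain, rose with CKI by 0.84, 0.44 and 0.34. ADAM10, also a sheddase, went the other way. With CKI its ratio was -0.38 at 24 h (not called) and -0.57 at 48 h in batch 1 (called). In batch 2 its mean was 161.0 CPM with CKI against 220.5 CPM in untreated cells. Over the 15 comparisons ADAM17 was called higher in 14 and lower in 0, and ADAM10 higher in 0 and lower in 12. Ezrin (EZR), which ties CD44 to actin, fell by 0.48, 0.55 and 0.52. Its relatives moesin (MSN) and radixin (RDX) lay on opposite sides of untreated. MSN was at -0.27 at 24 h (not called) and -0.36 at 48 h in batch 1, and went from 903.4 to 561.9 CPM in batch 2. RDX was at 0.27 (not called) and 0.18, and went from 173.5 to 225.8 CPM. Over the 15 comparisons RDX was called higher in 2 and lower in 4, and MSN lower in 8 and higher in 0. ESRP2, a splicing regulator that favours the variant exons of CD44, fell by 1.14, 1.32 and 1.02 (adjusted p = 9.51e-05, 4.55e-08 and 6.2e-08), and its relative ESRP1 fell by 2.14 in batch 2 on 5 to 22 counts per untreated library. ESRP1 was not called with CKI at 24 h (-0.40, adjusted p = 0.799) or at 48 h in batch 1 (0.41, adjusted p = 0.659), and over the 15 comparisons it was called higher in 10 and lower in this 1. With CKI 4, 9 and 11 of the 12 were called, with 2, 4 and 4 higher, where 30.0%, 54.0% and 66.4% of all genes were called.

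**Figure D4:**
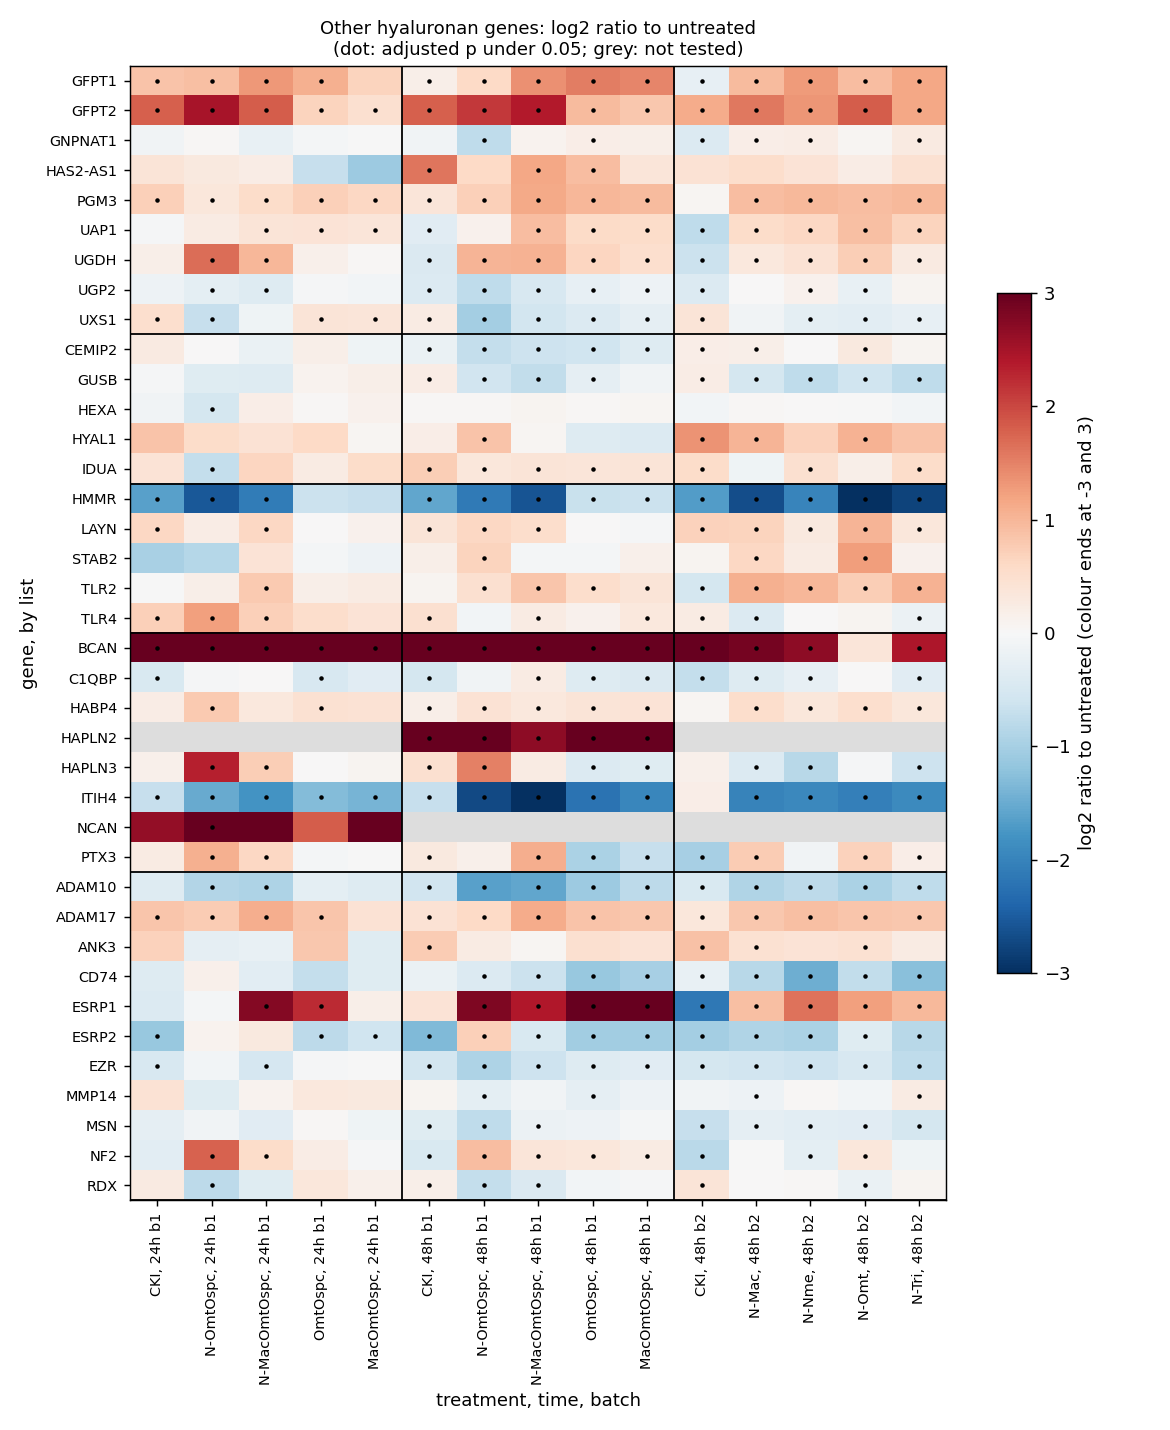
log2 ratio to untreated for other hyaluronan genes tested (rows, by list) in the 15 comparisons (columns), with a dot where the adjusted p was under 0.05 and grey where a gene was not tested. GFPT2 carries a dot and a positive ratio in all 15 columns, and HMMR a dot and a negative ratio in 13.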

How the data were processed

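The authors trimmed and aligned paired reads of poly(A)-selected, strand-specific libraries and deposited raw counts per gene for 54 libraries. The submitters' processing notes name FastQC 0.11.4, Trim Galore 0.3.7, STAR 2.5.3a, Subread 1.5.2 with featureCounts, edgeR 3.22.3 and build hg19. The strand setting and the treatment of reads shared by genes are not given in the sources used here. From the counts, 3 fits of 18 libraries (24 h batch 1, 48 h batch 1, 48 h batch 2) were made with edgeR 4.0.16 in R 4.3.3 (limma 3.58.1), with TMM scaling, filterByExpr, 1 term per group, the quasi-likelihood test and Benjamini-Hochberg adjustment over all genes tested (15191, 15513 and 15115), called at 0.05. The study's text states no test for these groups. CPM used TMM over all libraries. Standard errors are the log2 ratio divided by the root of the F statistic, and 95% intervals and p-values cover only the spread between these replicates. Differences between fits used the sum of both variances.

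The genes followed, the lists and the tests were chosen with earlier results of these data known. Of the lists, the text names genes called in the same direction in the 3 CKI comparisons and, per list, those with the 2 largest ratios of CKI in batch 2. Beside these it names ADAM10, RDX, MSN and GFPT1, relatives of genes so named. Likeness is Pearson's r of 15 ratios of group means (log2 CPM, prior count 2). Some genes of the lists are counted but not reported here by name. HAS2-AS1, RCSD1, ADAM10, RDX, MSN and GFPT1 were named after their values were seen. Exon lengths came from the GENCODE annotation on GRCh38 and promoters (250 bases) from RefSeq GRCh38.p14. Replicate numbers came from the labels; no 2 libraries held identical counts. Figures were drawn with Matplotlib 3.10.9. The procedure was tested on simulated data. Alternatives were RLE factors, library sizes alone, no filter, DESeq2 1.42.0, a replicate block, other sets of libraries, each replicate left out and a stricter threshold.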

Additional observations from a re-analysis of the deposited data

Results flagged for a closer look

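Each treatment was compared between 24 h and 48 h in batch 1, and CKI at 48 h between batches. The genes given here had every treated library on 1 side of untreated at one time or in one batch and on the opposite side in the other, and none of CEMIP, HAS2, HAS3, HYAL2, HYAL3 and CD44 did so. The differences were not tested. With CKI, CEMIP2, a relative of CEMIP, had log2 ratios of 0.267 at 24 h, -0.211 at 48 h in batch 1 and 0.206 in batch 2. UGDH, which makes UDP-glucuronate, had 0.168 at 24 h and -0.435 at 48 h in batch 1. PTX3 had 0.29 in batch 1 and -0.996 in batch 2 at 48 h. Between 24 h and 48 h in batch 1, ESRP2 had 0.287 and -0.468 with N-MacOmtOspc, STAB2 -0.867 and 0.669 with N-OmtOspc, and MMP14 0.311 and -0.277 with OmtOspc. UXS1 had 0.377 and -0.406 with OmtOspc and 0.37 and -0.28 with MacOmtOspc.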

How the results depend on the processing

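No result changed direction among called values. Of 202 alternative values of the CEMIP ratios, 196 moved by less than 1 SD of the replicates. The exceptions, with the cause not tested, were library sizes alone, with N-OmtOspc at 24 h at -3.14, OmtOspc at 48 h at -2.86, MacOmtOspc at 48 h at -2.86 and N-Nme at -2.80, and both batches of CKI at 48 h with the batch as a term, at -3.35. With library sizes alone, 4 CEMIP differences between mixtures also moved, N-MacOmtOspc minus N-OmtOspc to 0.45 at 24 h and 0.71 at 48 h, CKI minus N-MacOmtOspc to 0.66 and MacOmtOspc minus N-MacOmtOspc to 0.64, the latter both at 48 h. Of the other 5 genes, 28 ratios and 31 differences moved, 20 of each with library sizes alone. That scaling moved the median of all genes by over 0.1 with N-OmtOspc at 24 h (-0.31) and OmtOspc at 48 h (0.13). Asking for an absolute log2 ratio of at least 1 as well, which removes calls by construction, left 4, 11, 8, 4 and 2 related genes at 24 h for CKI, N-OmtOspc, N-MacOmtOspc, OmtOspc and MacOmtOspc, 6, 10, 13, 8 and 7 at 48 h in batch 1, and 6, 6, 7, 7 and 7 in batch 2 for CKI, N-Mac, N-Nme, N-Omt and N-Tri. For MacOmtOspc at 24 h, with 9 calls, the count was 21 with only the groups compared, 17 with all 54 libraries and 14 without the libraries that stood apart, and 4 to 6 without any replicate in turn. Over all genes 1588 were called there, against 5097, 4001, 3108 and 927 to 976 in the same order. For OmtOspc at 24 h, with 14, leaving out a replicate gave 7 to 13, with 7 without untreated replicate 1 and 8 without OmtOspc replicate 3. All 54 libraries in 1 fit called 5640 genes in place of 2543 with OmtOspc (1341 to 3266 without a replicate) and 7404 in place of 4562 with CKI at 24 h. Same-numbered libraries deviated together with correlations between -0.62 and 0.595 at 24 h, and at 48 h between -0.191 and 0.19 in batch 1 and between -0.037 and 0.079 in batch 2, so the numbers were not taken as pairs. With a replicate block the CEMIP ratio was -2.9 with CKI at 24 h, -2.92 and -3.98 at 48 h, and the related genes called were 15, 31 and 30. Of the 18 libraries per set, 9 at 24 h, 4 at 48 h in batch 1 and 12 in batch 2 correlated best with their own number. The count was highest in batch 2, where correlations reached at most 0.079, and pairing was not tested. Depth limits HAS2 and HAS3, at 17 to 174 and 12 to 150 counts, and BCAN, ESRP1 and HYAL1 more so.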
